A study of Vitis labrusca x Vitis vinifera with 9 samples.

Results

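The genes described here encode heat shock proteins, their DnaJ partners and chaperonins of grapevine, measured in buds of the hybrid Vitis labrusca x Vitis vinifera. A gene was taken as a member where the description of its Arabidopsis homolog held the words heat shock protein, DNAJ heat shock or chaperonin without the words transcription factor, and GSVIVT00036090001 (dnaJ 11) and GSVIVT00000343001 (a small heat shock protein) were named outright. This gave 81 of the 30128 grapevine genes on the array, 80 of them by their description. Only 6981 genes on the array carried such a description, so further chaperone genes without one were not counted. Of the members, 51 were DnaJ genes, 10 were described only as heat shock protein binding, 9 were chaperonin subunits, 5 were small heat shock proteins, 4 were related to the HSP100/Clp family and 2 were HSP70 genes. No member was described as an HSP90 or as an HSP100 disaggregase itself.

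Dormant buds on mature canes received 1 of 3 treatments and were compared after 24 h with buds sprayed with water on canes that were not pruned. The treatments were pruning with water (P), 1% hydrogen cyanamide, a chemical that breaks bud dormancy (HC), and both together (PHC). Each treatment was measured on 3 arrays with RNA of treated buds in Cy5 and RNA of control buds in Cy3, and the log2 ratio of the 2 dyes is the value reported below. The sample labels give pruned canes for HC, whereas the methods of the study describe HC without pruning, and the arrays were grouped by treatment as titled. Whole buds were sampled, so a change of RNA per cell cannot be told apart from a change in the share of cells that hold the RNA.

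Molecular chaperones bind proteins that are not folded and keep them from clumping. Small heat shock proteins hold such proteins without using ATP, HSP70 folds them in cycles driven by ATP, and DnaJ proteins, also called HSP40, deliver the substrate and start the ATP step of HSP70. Chaperonins are barrels that enclose a protein while it folds: CCT in the cytosol, which folds actin and tubulin, and CPN60 with its lid CPN10 in chloroplasts and mitochondria. In plants, many small heat shock proteins are made in heat and in maturing seeds, while most chaperonin subunits are made in growing cells at ordinary temperatures.

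A gene was called higher or lower where limma gave an adjusted p under 0.05 over 26395 tested genes and the change was at least 2-fold, which is 1 on the log2 scale. Of the 80 members tested, 1 was called higher and 2 lower after P, 4 higher and 3 lower after HC, and 9 higher and 8 lower after PHC. Among all genes tested, 2.75% were called higher and 0.572% lower after P, 5.16% and 4.75% after HC, and 13.5% and 11.7% after PHC. The members' shares were 1.25% and 2.5% after P, 5% and 3.75% after HC, and 11.2% and 10% after PHC. The members as a whole thus stood near the background after HC and PHC, and 59 of the 80 were called after no treatment. After P the lower share was above that of all genes, but it rests on 2 genes. Of these, 1 is dnaJ 11, named in the rule as already lower. Lower calls after HC and PHC also include dnaJ 11 and GSVIVT00000343001, both named in the rule. The comparison with all genes also depends on the scaling, as given below. The untested member, the DnaJ gene GSVIVT00038614001, was not well above background in either dye on any array.

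Each of the 6 classes held 1 to 7 of the calls after PHC. The median log2 change after PHC was 0.81 for the 9 chaperonins and 0.93 for the 2 HSP70 genes, beside -0.07 for all tested genes. It was 0.05 for the 50 DnaJ genes tested. The medians of the heat shock protein binding genes (-0.42), the small heat shock proteins (-0.57) and the HSP100/Clp-related genes (-0.41) were below 0, but above 0 (0.25, 0.36 and 0.24) when each array was centred on its median after another background correction. That setting moved the median of all tested genes from -0.07 to 0.16 after PHC and from -0.03 to 0.10 after P, and it called 27 members higher and 3 lower after PHC, beside 5486 and 747 of all genes. The chaperonin and HSP70 medians were above 0 after every treatment under each of the 3 scalings tried.

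**Figure D1:**
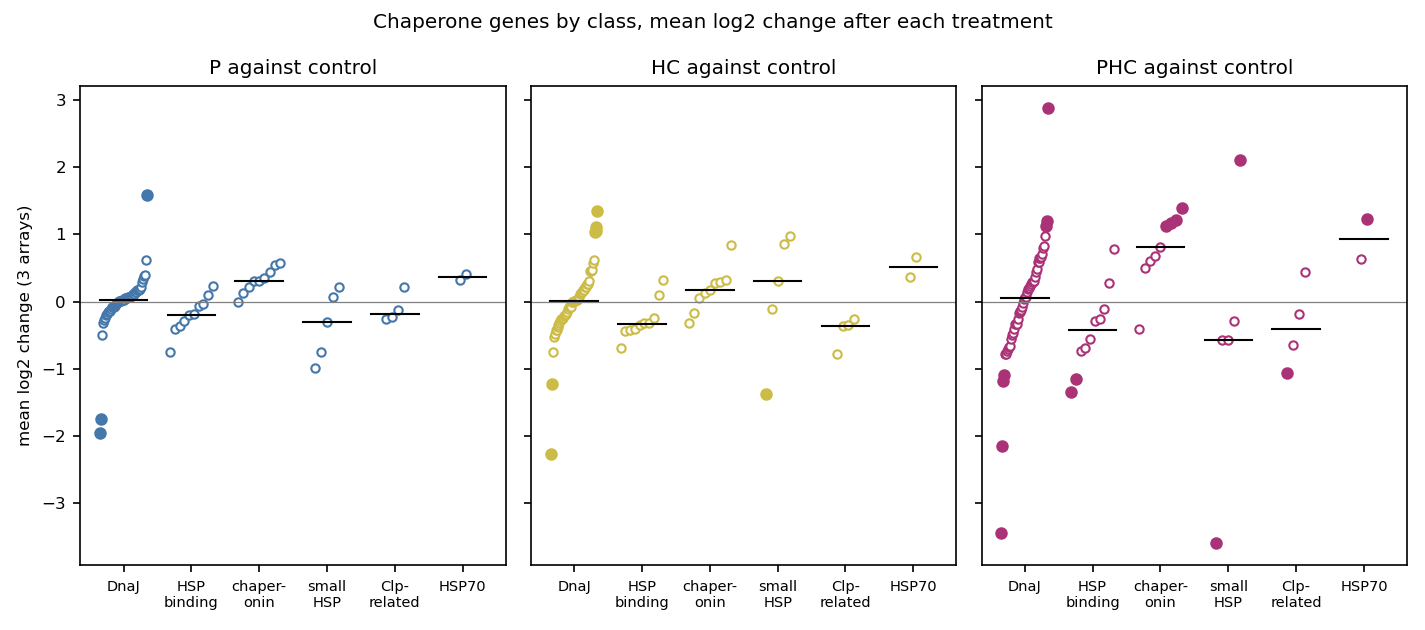
Mean log2 change of each tested chaperone gene (points; 3 arrays each) by class after P, HC and PHC, with the class median as a bar and filled points for genes called higher or lower. After PHC, 8 of the 9 chaperonins lie above 0 and 4 are called, while the DnaJ genes spread from -3.45 to 2.88 around a median of 0.05.

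Both DnaJ genes with the deepest falls were low on all 9 arrays. The gene named dnaJ 11 had log2 ratios of -1.72, -2.07 and -2.07 on the 3 P arrays, -2.34, -2.66 and -1.83 on the HC arrays, and -3.26, -3.25 and -3.83 on the PHC arrays. The PHC values lay below every P and HC value, which overlapped each other. Its RNA was 3.87-fold lower after P (adjusted p = 0.0013, limma), 4.84-fold lower after HC (adjusted p = 5.9e-05) and 10.9-fold lower after PHC (adjusted p = 5e-06). This gene was named in the rule because it was already listed as lower in all treatments, so its 3 calls describe the choice as well as the gene. The files give no Arabidopsis homolog for it.

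GSVIVT00014409001 is the homolog of AT4G36040, known in Arabidopsis as J11, a small DnaJ protein of the chloroplast. It stood at -2.18, -1.87 and -1.22 after P, at -1.76, -1.32 and -0.60 after HC and at -2.01, -2.17 and -2.26 after PHC. The ranges of P and PHC overlapped, and the PHC arrays were the closest together. It fell by 1.75 (adjusted p = 0.0039), 1.23 (adjusted p = 0.0039) and 2.15 (adjusted p = 7.6e-05) on the log2 scale. Its control signal was low, 80.4 to 114 over a background of 27.9 to 31.9. With the normexp background correction and loess its changes were -0.82, -0.58 and -0.99, under 2-fold after each treatment, and without HC replicate 1 its change after HC was -0.96.

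A further pair of DnaJ genes fell after PHC. GSVIVT00030478001, homolog of AT1G56300, read -0.78, -0.77 and -2.01 on the PHC arrays, so replicate 3 was far below the others, and its mean of -1.19 (adjusted p = 0.0029) was -0.77 without that array, under 2-fold, and -0.26 under median centring (adjusted p = 0.44). GSVIVT00018781001, homolog of AT2G42750, known as DJC77, a chloroplast protein that joins a J domain to a ferredoxin-like domain, read -0.94, -0.96 and -1.38. Its mean was -1.09 (adjusted p = 0.00014) after PHC and 0.00 and -0.31 after P and HC. It was -0.95 without PHC replicate 3, -0.91 with normexp and loess and -0.44 under median centring (adjusted p = 0.077), each under 2-fold.

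GSVIVT00025539001, homolog of AT3G12170, was the DnaJ gene with the greatest rise. It read 2.22, 3.37 and 3.07 on the PHC arrays, overlapping the P arrays only through P replicate 2, and its RNA was 7.38-fold higher (adjusted p = 0.00012). After P it read 0.68, 2.43 and 1.64, a wide spread with a mean of 1.58 ± 0.88 (SD, n = 3; adjusted p = 0.02), and the call was lost without P replicate 2 (adjusted p = 0.17) or 3 (adjusted p = 0.1). After HC it was 0.69, 0.81 and -0.15, with a mean of 0.45 that was not called (adjusted p = 0.34). The probe was dim in control buds, with a Cy3 signal of 82.8 to 115.

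Another 2 DnaJ genes rose after PHC. GSVIVT00023145001, homolog of AT2G35795, which resembles the J protein of the mitochondrial import motor, read 1.03, 1.13 and 1.20 after PHC and between -0.10 and 0.53 on the 6 other arrays. Its mean was 1.12 ± 0.09 (SD, n = 3; adjusted p = 0.00011). GSVIVT00014342001, homolog of AT1G77020, read 1.61, 0.51 and 1.49, with a mean of 1.20 (adjusted p = 0.0062), but in Cy3 the probe rose well above background on just 2 of the 3 PHC arrays and 5 of all 9. Its change was 0.29 under loess after normexp and -0.23 under median centring, so its direction depends on the background correction.

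After HC the called rises were all of DnaJ genes. GSVIVT00031892001, homolog of AT5G23240, known as DJC76 and of the same domain type as DJC77, read 1.42, 1.53 and 1.09 after HC against -0.86, -0.50 and -0.67 after PHC, with no overlap. Its mean was 1.35 after HC (adjusted p = 0.00027), -0.16 after P and -0.68 after PHC, which was under 2-fold. Its control signal was low, 80.7 to 106, and with normexp and loess the change after HC was 0.95, also under 2-fold. GSVIVT00015128001, homolog of AT2G33735, read 1.01, 0.96 and 1.15 after HC and between 0.09 and 0.40 on the other arrays, a mean of 1.04 (adjusted p = 0.00014). GSVIVT00034027001, homolog of AT3G14200, averaged 1.11 (adjusted p = 0.00074) and GSVIVT00033470001, homolog of AT3G13310, averaged 1.04 ± 0.79 (SD, n = 3; adjusted p = 0.023) after HC. Without HC replicate 3 these last 3 genes stood at 0.98, 0.88 and 0.65, each under 2-fold. The GSVIVT00033470001 call was also lost without HC replicate 1 (adjusted p = 0.083) and with the HC arrays fitted alone (adjusted p = 0.12). After PHC, GSVIVT00034027001 and GSVIVT00033470001 averaged 0.66 (adjusted p = 0.0049) and 0.83 (adjusted p = 0.035), under 2-fold. Under median centring both were called after PHC (1.36 and 1.5). Their PHC and HC changes did not differ by test (adjusted p = 0.14 and 0.72).

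**Figure D2:**
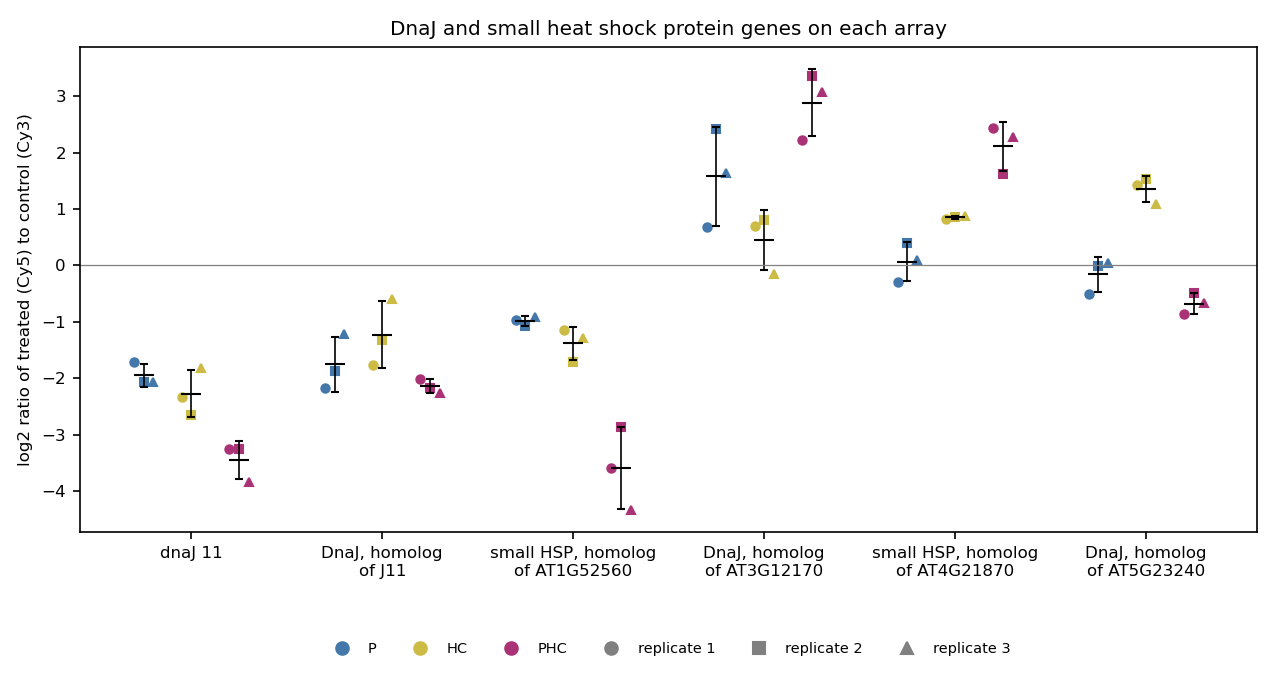
Log2 ratio of treated to control RNA on each array (coloured points; the shape gives the replicate number) with the mean and SD over 3 arrays (bars) for 4 DnaJ and 2 small heat shock protein genes after P, HC and PHC. The small heat shock protein of GSVIVT00000343001 is lowest after PHC (-2.87 to -4.33), whereas the homolog of AT5G23240 is above 0 on the HC arrays and below 0 on the PHC arrays.

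Small heat shock proteins did not move as one class. GSVIVT00000343001, described as a class I protein of 26.5 kDa and homolog of AT1G52560, read -0.98, -1.07 and -0.91 after P, -1.14, -1.71 and -1.29 after HC and -3.58, -2.87 and -4.33 after PHC. It was below 0 on all 9 arrays, and all PHC values were lower than all others. It fell by 3.60 on the log2 scale after PHC, which is 12.1-fold (adjusted p = 8.9e-06), and by 1.38 after HC (adjusted p = 0.0024), while its mean of -0.99 after P (adjusted p = 0.029) was just under 2-fold. This gene too was named in the rule with its change known, and its fall after PHC was the greatest of the 80 members. With median centring its change after HC was -0.90, under 2-fold.

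The opposite was seen for GSVIVT00011498001, homolog of AT4G21870, described as related to the class P protein of 26.5 kDa. It read -0.29, 0.40 and 0.10 after P, 0.83, 0.85 and 0.87 after HC and 2.44, 1.62 and 2.27 after PHC, so that the 3 treatments did not overlap. Its RNA was 4.32-fold higher after PHC (adjusted p = 2.1e-05). The mean of 0.85 after HC (adjusted p = 0.0061) was under 2-fold, and the mean after P was 0.07.

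The other 3 small heat shock protein genes were called after no treatment with the authors' normalization. GSVIVT00018510001, homolog of the 15.7 kDa protein AT5G37670, which is found in peroxisomes in Arabidopsis, read 0.67, 0.72 and 1.55 after HC and -0.63, -0.27 and -0.80 after PHC, with no overlap. Its mean of 0.98 after HC (adjusted p = 0.0034) was just under 2-fold. It was past 2-fold and called with normexp and loess (1.08), under median centring (1.52), and without HC replicate 1 (1.13) or 2 (1.11). Under median centring it stood at 0.34 after PHC, not called, so that its direction there depends on the scaling. GSVIVT00034024001, homolog of the 17.4 kDa class III protein AT1G54050, averaged -0.74, -0.11 and -0.57 after P, HC and PHC. It read -0.66, -0.93 and -0.65 after P (adjusted p = 0.074). The SD was 0.16 after P, beside 0.64 after HC and 0.43 after PHC. Under median centring GSVIVT00034024001 stood at 0.52 after HC and 0.39 after PHC, and with normexp and loess at 0.05 after HC. Its direction after HC and PHC thus depends on the scaling. GSVIVT00027436001, homolog of AT5G54660, averaged 0.22, 0.31 and -0.29.

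Of the 9 chaperonins, 4 were called higher after PHC and 0 lower, beside 13.5% and 11.7% of all genes. The 4 were the homologs of CCT epsilon (GSVIVT00030706001), CCT delta (GSVIVT00017754001), CCT zeta (GSVIVT00038194001) and a chloroplast CPN60 beta subunit (GSVIVT00024837001), and 8 of the 9 were above 0 on all 3 PHC arrays. The 4 were called in each fit with 1 array left out as well, and also with normexp and loess. With median centring 8 were called higher, and 0 of the 9 were called lower under any setting with the fold limit.

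CCT epsilon read 1.46, 1.22 and 1.50 after PHC, above all of its P values (0.38, 0.75 and 0.52) and HC values (0.31, 0.61 and -0.08), and rose by 1.39 (adjusted p = 6.2e-05), which is 2.63-fold. CCT delta read 1.13, 1.17 and 1.32 after PHC, with a mean of 1.21 (adjusted p = 3e-05). CCT zeta read 1.17, 0.94 and 1.39, with a mean of 1.17 (adjusted p = 4.6e-05). For both genes every PHC value was above every P and HC value. The beta, gamma and theta subunits (GSVIVT00015538001, GSVIVT00016108001 and GSVIVT00025480001) averaged 0.81, 0.60 and 0.50 after PHC, with adjusted p of 0.0028, 0.003 and 0.0042, all under 2-fold. The 6 CCT subunits thus had means of 0.50 to 1.39 after PHC, against 0.21 to 0.57 after P and -0.17 to 0.33 after HC.

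The chloroplast chaperonins differed among themselves. GSVIVT00024837001, homolog of the CPN60 beta subunit AT3G13470, read 1.21, 0.89 and 1.26 after PHC and 0.70, 0.86 and 0.97 after HC. Its mean was 1.12 after PHC (adjusted p = 6.6e-05) and 0.84 after HC (adjusted p = 0.00089), the latter under 2-fold. The homolog of the lid protein AT3G60210 (GSVIVT00019006001) averaged 0.67 ± 0.23 (SD, n = 3; adjusted p = 0.0049) after PHC. GSVIVT00021181001, homolog of AT1G26230, a CPN60 beta form that in Arabidopsis folds a subunit of the chloroplast NDH complex, was the exception with -0.43, -0.48 and -0.32 after PHC, a mean of -0.41 (adjusted p = 0.019). Its control signal was low, 57.85 to 113 over a background of 27.9 to 33.5. No chaperonin was below -0.148 after PHC with normexp and loess, or below -0.313 under median centring.

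**Figure D3:**
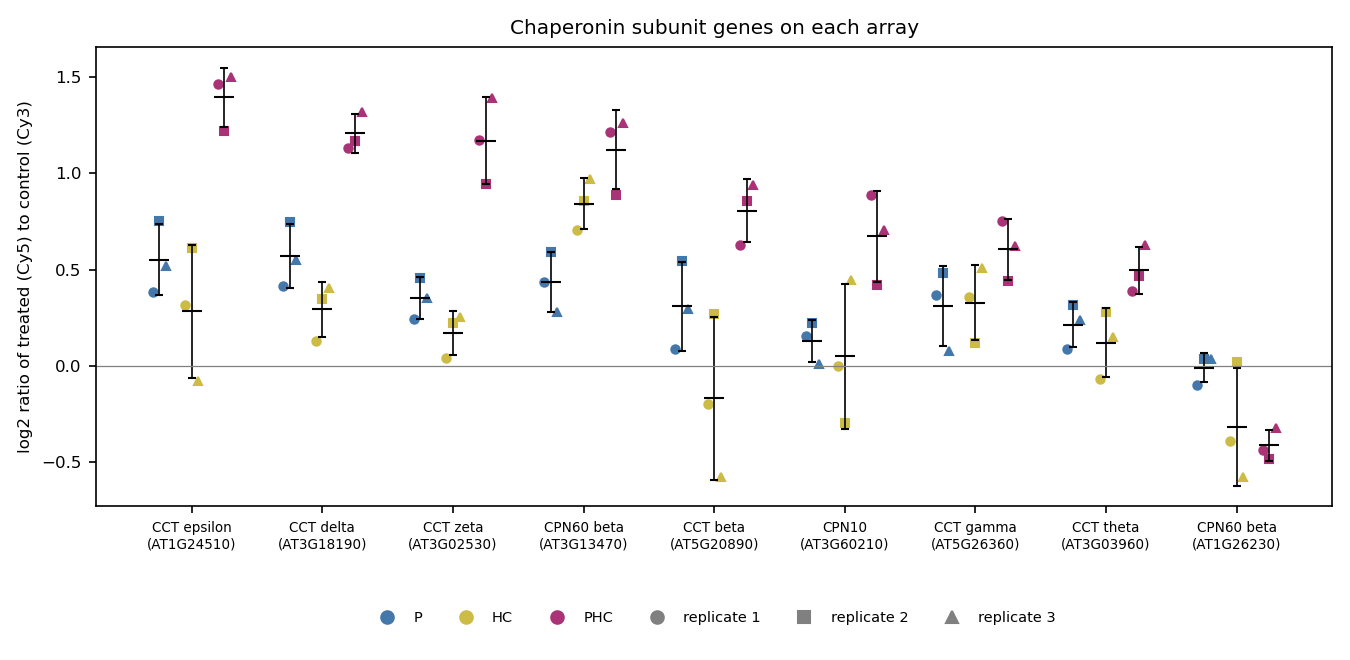
Log2 ratio of treated to control RNA on each array (coloured points; the shape gives the replicate number) with the mean and SD over 3 arrays (bars) for the 9 chaperonin subunit genes, ordered by their mean after PHC. CCT epsilon, CCT delta, CCT zeta and the CPN60 beta homolog of AT3G13470 average 1.39, 1.21, 1.17 and 1.12 after PHC, and the homolog of AT1G26230 averages -0.41.

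Of the 2 HSP70 genes, both from the HSP110-like branch of that family, GSVIVT00006855001 rose after PHC. It is the homolog of AT4G16660, a form predicted to lie in the endoplasmic reticulum, and read 1.86, 0.78 and 1.03, with a mean of 1.22 ± 0.57 (SD, n = 3; adjusted p = 0.0028). Replicate 1 was the highest, and without it the mean was 0.90, under 2-fold. GSVIVT00027331001, homolog of AT1G11660, averaged 0.63 after PHC (adjusted p = 0.022). Both were above 0 on all P and PHC arrays.

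Of the 10 genes described only as heat shock protein binding, 2 were called lower after PHC and 0 higher, beside 11.7% and 13.5% of all genes. Of the 10, 7 were below 0 on all 3 PHC arrays. The PHC mean was above 0 for 2 of the 10, beside 12094 of all 26395 tested genes. Under median centring 6 of the 10 were above 0 and 0 were called lower, so the direction of this class depends on the scaling. GSVIVT00014180001 is the homolog of AT5G61670, the ORANGE protein of plastids, which in plants raises carotenoid levels by stabilizing phytoene synthase. It read -1.36, -0.88 and -1.22 after PHC, lower than its P and HC values of -0.47 to -0.18, with a mean of -1.15 (adjusted p = 5.2e-05). GSVIVT00027204001, homolog of AT5G55570, read -1.68, -1.18 and -1.19 after PHC, -0.85, -0.63 and -0.75 after P, and 0.18, 0.28 and -0.19 after HC, so the treatments did not overlap. Its mean was -1.35 after PHC (adjusted p = 5.9e-05). Both were under 2-fold after PHC with normexp and loess, at -0.97 and -0.67, and under median centring, at -0.43 (adjusted p = 0.077) and -0.79. GSVIVT00031820001, homolog of AT1G65280, lay within 0.01 (SD, n = 3) of -0.70 after HC and averaged -0.74 after PHC, under 2-fold in both.

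The 4 HSP100/Clp-related genes are homologs of the SMAX1 family of Arabidopsis, which resembles Clp ATPases in sequence but is known for holding back karrikin and strigolactone signalling and for a role in phloem formation. GSVIVT00024089001, homolog of SMXL7, a repressor in strigolactone signalling, read -0.87, -1.07 and -1.24 after PHC and fell by 1.06 (adjusted p = 0.00039). It was -0.97 without PHC replicate 3 and -0.42 with median centring, both under 2-fold. The homolog of SMAX1 (GSVIVT00017025001) averaged -0.64 (adjusted p = 0.00045) and that of SMXL3 (GSVIVT00021519001) -0.18 (adjusted p = 0.42) after PHC. The homolog of SMXL4 (GSVIVT00006782001) read -0.90, -0.94 and -0.49 after HC, but 0.55, 0.44 and 0.33 after PHC and 0.10, 0.23 and 0.30 after P. All HC values were thus below 0 and all P and PHC values above it.

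Adding pruning to HC was tested as PHC minus HC, in which 6 members were higher and 7 lower, beside 8.55% and 5.33% of all genes. The 3 greatest rises were those of the homolog of AT3G12170, the small heat shock protein homolog of AT4G21870 and the SMXL4 homolog, with differences of 2.43 (adjusted p = 0.0068), 1.26 (adjusted p = 0.0069) and 1.22 (adjusted p = 0.0019) on the log2 scale. The 3 greatest falls were those of GSVIVT00000343001, the DJC76 homolog and the 15.7 kDa small heat shock protein, with -2.21 (adjusted p = 0.0025), -2.02 (adjusted p = 0.00099) and -1.55 (adjusted p = 0.0034). Among the chaperonins only CCT epsilon was called in this test, with a difference of 1.11 (adjusted p = 0.0052). CCT zeta, beta and delta were also higher in PHC than in HC, but just under 2-fold. Their differences were 0.996 (adjusted p = 0.0033), 0.975 (adjusted p = 0.015) and 0.914 (adjusted p = 0.0037). Those of the remaining chaperonins were -0.10 to 0.62, with adjusted p of 0.06 to 0.7.

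**Figure D4:**
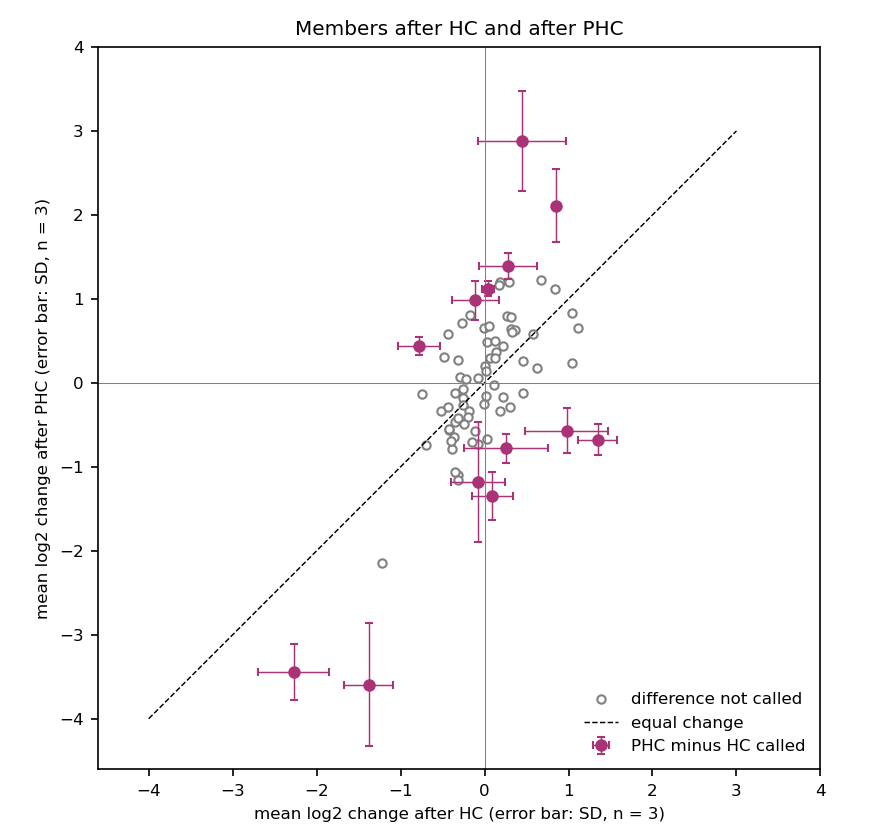
Mean log2 change after HC (x axis) and after PHC (y axis) of the 80 tested members, with filled points and SD bars (n = 3) for the 13 whose difference was called and a dashed line where the changes are equal. The 2 filled points farthest to the lower left are dnaJ 11 (-2.27 and -3.45) and GSVIVT00000343001 (-1.38 and -3.60), and those at the lower right of the origin, low after PHC and above 0 after HC, include the homologs of AT5G23240 and AT5G37670.

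Adding HC to pruning, PHC minus P, gave 1 member higher and 3 lower, beside 4.85% and 4.82% of all genes. The AT4G21870 homolog was higher by 2.04 (adjusted p = 0.002), and GSVIVT00000343001, dnaJ 11 and the DJC77 homolog were lower, with -2.61 (adjusted p = 0.0024), -1.50 (adjusted p = 0.0056) and -1.10 (adjusted p = 0.0055). The DJC77 difference was -0.95 without PHC replicate 3, -0.95 with normexp and loess and -0.76 under median centring (adjusted p = 0.094). Between the single treatments, HC minus P, 2 members were higher and 0 lower, beside 3.35% and 3.13% of all genes. These were the DJC76 homolog, with 1.51 (adjusted p = 0.003; 0.99 with normexp and loess), and the 15.7 kDa small heat shock protein, with 1.29 (adjusted p = 0.015), whose adjusted p was 0.053 to 0.059 when any P array was left out.

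The log2 change after PHC was also set against the sum of those after P and HC. It was above the sum for 1 member and below it for 1, beside 1.54% and 1.52% of all genes. The SMXL4 homolog lay 1.00 above the sum (adjusted p = 0.038) and the DJC76 homolog 1.86 below it (adjusted p = 0.022). The SMXL4 call was lost when any 1 of 8 arrays was left out, and held without HC replicate 3. The DJC76 call was lost when any 1 of 5 arrays was left out and held without each of the other 4. Under median centring neither was called (adjusted p = 0.078 and 0.054). With normexp and loess the SMXL4 homolog lay 0.966 above the sum, under 2-fold, so it was not called there either.

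Genes of related pathways were counted beside the members, from lists matched by the homolog's description or by names in the study's supplementary tables. All 10 heat stress transcription factors, of classes A, B and C by name, had been named by those tables as changed in these samples. Neither their direction nor the share of them called is thus independent evidence. Of these, 0 were called higher and 1 lower after P, 2 and 2 after HC, and 3 and 6 after PHC. The PHC shares of 30% and 60% cannot be weighed against the 13.5% and 11.7% of all genes. The list was drawn from genes already found changed. The A-7a-like factor (GSVIVT00016537001) was the lowest after PHC with -3.13, -2.63 and -3.88, a mean of -3.21 (adjusted p = 1e-05), and the B-4-like factor (GSVIVT00014836001) the highest with a mean of 1.69 (adjusted p = 4.7e-05).

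Of 7 chaperone genes of the endoplasmic reticulum, 6 had likewise been named by the study's list of genes changed in all 3 treatments. These 6 were called higher after every treatment, which follows from that choice. Of the 6, GSVIVT00022619001 and GSVIVT00022621001 carry the same calreticulin name in the study's list. Among these 6 chosen genes, the calnexin homolog GSVIVT00011650001, a lectin chaperone, rose the most, with 4.57, 3.35 and 3.64 after PHC (adjusted p = 1.3e-05). Chosen after their values were seen, because they are the HSP70, HSP90 and DnaJ forms of that compartment, the luminal-binding protein (GSVIVT00037232001), endoplasmin (GSVIVT00014401001) and ERDJ3B (GSVIVT00028084001) genes averaged 3.35, 2.75 and 2.50 after PHC. They are no members because the field for the homolog's description is empty for them, though the files give an Arabidopsis identifier for endoplasmin (AT4G24190) and ERDJ3B (AT3G62600). The one gene found by description alone, GSVIVT00006229001, homolog of AT5G61790, was the only gene of this list not already named as changed. It averaged 0.09 after P (adjusted p = 0.77), -0.20 after HC (adjusted p = 0.39) and -0.42 after PHC (adjusted p = 0.056). It was called after no treatment, so the rises above hold for the chosen genes only.

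Of 5 co-chaperones tested, 1 was called, the homolog of AT1G12270 (GSVIVT00007284001), which in Arabidopsis links HSP70 to HSP90, with a mean of 1.36 after PHC (adjusted p = 0.00025). This share of 20% rests on 1 gene, beside 13.5% of all genes called higher after PHC. Of 27 peptidyl-prolyl isomerases, which turn proline bonds during folding, 0 were called after P. After HC, 1 was higher (3.7%) and 2 lower (7.41%), beside 5.16% and 4.75% of all genes. After PHC, 4 were higher (14.8%) and 1 lower (3.7%), beside 13.5% and 11.7% of all genes, so the higher share was near that of all genes. The homolog of AT4G25340 (GSVIVT00000981001) averaged 2.39 (adjusted p = 1.6e-05) and that of AT5G45680 (GSVIVT00030084001) -1.08 (adjusted p = 4.8e-05) after PHC. Of 9 late embryogenesis abundant proteins, which protect dry seeds, 0 were called higher and 1 lower after P and after HC, and 1 higher (11.1%) and 4 lower (44.4%) after PHC, beside 13.5% and 11.7% of all genes. The homolog of AT3G15670 (GSVIVT00034564001) was the lowest with a mean of -2.95 (adjusted p = 6.7e-05) and that of AT2G18340 (GSVIVT00024917001) the highest with 1.74 (adjusted p = 8e-06).

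The 55 tested members outside the rule for named genes, a few of which are given above, had means of -0.37 to 0.62 after P, -0.75 to 0.63 after HC and -0.79 to 0.98 after PHC, all under 2-fold. The 6 green leaf genes found by their descriptions were the only marker list with members, all 6 well above background in control buds on every array, and of these 0 were called after P or PHC and 1 lower after HC. Lists for meristem, wood, phloem and epidermis matched 0 genes, so the cell makeup of the buds was not checked further and its part in these changes was not tested.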

How the data were processed

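Two-colour Agilent arrays of grapevine genes were used, 9 in all, with 3 arrays for each of P, HC and PHC. The authors had extracted the signals with Agilent Feature Extraction 10.5 and had subtracted the background and normalized the dyes by LOWESS. The deposited log2 values are the log2 of Cy5 over Cy3 that resulted, and the deposited intensity values are linear signals of each dye. A second deposited table held the same log2 values within 0.005. The dyes were exchanged on 0 arrays, so dye and treatment cannot be told apart within a gene. The aligner used to pair the genes with Arabidopsis homologs was not given in the sources used here, and a homolog's role need not be that of the grapevine gene.

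Outlier spots, 81 values in all, were left out, and 0 spots were saturated. A gene was tested where its probe was well above background in either dye on all 3 arrays of a treatment. On an array, 80.6 to 88.9% of probes were well above background in Cy3 and 83.7 to 90.3% in Cy5. The number of arrays limits the precision, and 79 of the 80 tested members were well above background in both dyes on all 9 arrays.

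One limma model (version 3.58.1, R 4.3.3) held 1 mean for each treatment over 26395 genes. It left 6 degrees of freedom, to which the moderation added 2.74, and p-values were adjusted by Benjamini-Hochberg over all these genes. Calls needed an adjusted p under 0.05 and a 2-fold change. Tables and figures were made with Python 3.11.15, pandas 2.3.3 and matplotlib 3.10.9. The labels call the 3 arrays of a treatment biological replicates, and they do not say whether arrays of one number, in different treatments, hold the same control RNA.

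The members, classes and gene lists were chosen with earlier results of these data known. Named genes were every member called after a treatment (at most 10 rises and 10 falls each), the 3 greatest differences each way between treatments, the 2 members named in the rule, the member of each class with the highest control signal rank, and the greatest called rise and fall after PHC of each pathway list. A list of unfolded protein response regulators matched 0 genes. The alternatives were a normexp background correction (offset 50) followed by loess or by centring on the median, the second deposited table, all genes tested, both dyes well above background, array quality weights, a replicate block, each treatment's own arrays, no fold limit, and each array left out. No sequences were used here.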

Additional observations from a re-analysis of the deposited data

Results flagged for a closer look

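Several members changed differently in 2 treatments, by a test of the difference itself (limma, log2 scale). In PHC minus HC, besides the 6 differences given above and the 1.11 of CCT epsilon (GSVIVT00030706001), the DnaJ genes GSVIVT00028093001 and GSVIVT00023145001 were higher by 1.09 (adjusted p = 0.0062) and 1.08 (adjusted p = 0.0038). The heat shock protein binding gene GSVIVT00027204001 and the DnaJ genes dnaJ 11, GSVIVT00030478001 and GSVIVT00025472001 were lower, with -1.44 (adjusted p = 0.0018), -1.17 (adjusted p = 0.01), -1.11 (adjusted p = 0.041) and -1.03 (adjusted p = 0.017).

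The greatest were the 2.43 of GSVIVT00025539001 and the -2.21 of GSVIVT00000343001. GSVIVT00011498001 differed by 1.26 in PHC minus HC and 2.04 in PHC minus P, where GSVIVT00000343001, dnaJ 11 and GSVIVT00018781001 differed by -2.61, -1.50 and -1.10. For 3 genes the direction of the array values turned between treatments. GSVIVT00031892001 (the DJC76 homolog) was above 0 on all HC arrays and below 0 on all PHC arrays, with -2.02 in PHC minus HC, 1.51 in HC minus P and -1.86 against the sum of P and HC. GSVIVT00018510001 (the 15.7 kDa small heat shock protein) turned likewise, with -1.55 in PHC minus HC and 1.29 in HC minus P, though neither its HC nor its PHC change was called against control, and under median centring it was above 0 after both (1.52 and 0.34). GSVIVT00006782001 (the SMXL4 homolog) turned the other way, with 1.22 in PHC minus HC and 1.00 against the sum. The latter was not called with normexp and loess or under median centring.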

How the results depend on the processing

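Without a fold limit, 5, 11 and 29 members were higher and 4, 11 and 26 lower after P, HC and PHC. Of all 26395 genes, 1890, 3805 and 7007 were then higher and 1304, 5120 and 7674 lower. Among members, 28, 17, 7 and 5 differed in PHC minus HC, PHC minus P, HC minus P and PHC against the sum. With normexp and median centring, 7 were higher and 1 lower after HC, 27 and 3 after PHC, 9 differed in PHC minus P and 0 from the sum. With normexp and loess, 1 was lower after P and 4 after PHC, and 1 differed in HC minus P. With array quality weights, 4 differed in HC minus P and 7 from the sum. These counts moved by over 1.5 times, and the cause was not tested. All other settings that kept the 9 arrays left the counts of members within 1.5 times. With 1 array left out, higher calls numbered 0 to 1 after P, 1 to 5 after HC and 8 to 10 after PHC, and lower calls 2 to 2, 2 to 3 and 5 to 8. Differences numbered 10 to 16 in PHC minus HC, 3 to 6 in PHC minus P, 1 to 5 in HC minus P and 0 to 4 from the sum.

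Of 41 calls on named members, 29 held under loess and 30 under median centring, where GSVIVT00014342001 turned to -0.23 after PHC. With a single array left out 35 to 40 held. Over all genes the split after PHC was 3552 higher and 3083 lower, 2808 and 1923 under loess, and 5486 and 747 under median centring. After HC it was 1362 and 1254, then 1046 and 466, then 1350 and 297.

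A replicate block kept all 41 calls, and it gave 14 instead of 13 members in PHC minus HC and 5 instead of 4 in PHC minus P. Of 9 same-number pairs, 8 deviated together (r over 0.1; 0.00309 to 0.628), and all 9 arrays were most like one of their own number. The study's methods describe 3 randomized blocks of canes, but no source says that a replicate number marks a block. Members with weak control signal included GSVIVT00014342001 (35.5 to 43.0), GSVIVT00014409001, GSVIVT00025539001, GSVIVT00031892001 and GSVIVT00027204001 (72.4 to 136). They also included the chaperonin GSVIVT00021181001 (57.85 to 113) and the DnaJ genes GSVIVT00025651001 (41.3 to 58.7) and GSVIVT00019629001 (47.35 to 59.0).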
